A study of Homo sapiens with 12 samples.

Results

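The genes described here are the nuclear genes for subunits of the oxidative phosphorylation machinery, in 2 human kidney cancer cell lines after knockdown of NUF2. They were chosen by name: NDUFA, NDUFB, NDUFC, NDUFS or NDUFV followed by digits only, UQCR, COX4I1, COX5A, COX5B, COX6, COX7 and COX8, and ATP5, with pseudogene names left out. The rule took 81 of the 58302 genes measured, and 87 pseudogene names were left out. Of the 81, 36 carry names of complex I, 9 of complex III, 17 of complex IV (COX names and NDUFA4) and 19 of complex V. The libraries came from 769-P and ACHN cells, established lines that the labels give as clear cell renal cell carcinoma cells. Each line was transfected for 48 h with siRNA against NUF2 (si-NUF2, a mixture of siRNAs in the methods of the study) or with control siRNA (si-NC), with 3 libraries in each of the 4 groups. NUF2 is a subunit of the NDC80 complex, which ties kinetochores to spindle microtubules, and the question was what changes in RNA when it is depleted. No rescue was sequenced, so effects of the siRNA other than on NUF2 cannot be told apart from those of the knockdown. Nothing says that the replicates were separate cultures, so p-values measure only the spread between these libraries.

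In the inner mitochondrial membrane, complex I takes electrons from NADH, complex III passes them from ubiquinol to cytochrome c, complex IV passes them to oxygen, and complex V makes ATP from the proton gradient that the others build. A few central subunits of complexes I, III, IV and V are encoded by mitochondrial DNA, and the larger number, all the genes described here among them, are nuclear genes whose products are imported and fitted together with assembly factors. Each complex has core subunits that carry the chemistry and accessory subunits that hold or regulate them. The promoters of many of these genes are known to bind nuclear respiratory factor 1 (NRF1), GA-binding protein (GABP) and YY1. Clear cell renal cell carcinoma is known for a low use of oxidative phosphorylation.

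Expression is given as FPKM, fragments normalised to gene length and to the size of the library, so that genes are compared per length. The reads recovered from the FPKM ran from 26367678 to 34581765 per library over 34585 of the 36305 genes with a value. In both lines the 3 si-NUF2 libraries had less NUF2 than any control, with means of 3.68 against 18.3 FPKM in 769-P (log2 fold change of -2.28, limma adjusted p = 0.00146) and 3.85 against 13.8 FPKM in ACHN cells (-1.88, adjusted p = 0.231, and 0.0128 with the replicate number as a block). The kidney epithelial markers PAX8 (44.7 to 199.5 FPKM) and PAX2 (5.52 to 23.8 FPKM) were present in all 12 libraries. CDH6 stayed at 0.0047 FPKM or less in ACHN cells, and CA9, the classical marker of clear cell tumours, at 0.121 FPKM or less in both lines. Markers of leukocytes, endothelium, adipocytes and striated muscle reached at most 0.085 FPKM. COL1A1 (1.14 to 3.87 FPKM) and PDGFRB (0.232 to 2.79 FPKM), markers of fibroblasts and pericytes, were above 0.2 FPKM in ACHN libraries and at or below 0.14 FPKM in 769-P libraries. DCN, the third marker of that list, was at 0.083 FPKM or less in all 12 libraries. Their part in the differences between the lines was not tested.

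Summed over the 81 genes, a 769-P library held 5303 to 6041 FPKM and an ACHN library 2440 to 2657, which was 1.71 to 1.93% and 0.829 to 0.961% of all FPKM. Complex I took the largest share, with 1915 to 2195 FPKM in a 769-P library and 839 to 964 in an ACHN library. As a group they moved slightly from library to library within a treatment. The median deviation of the 72 tested genes from the mean of their line was -0.029, 0.037 and 0.108 (log2) in 769-P si-NC 1, 2 and 3, and -0.068, -0.018 and -0.026 in the si-NUF2 libraries. In ACHN cells it was 0.023, -0.0084 and -0.088 under si-NC and 0.091, -0.0045 and -0.023 under si-NUF2. Over all genes tested the same value stayed between -0.017 and 0.021 in every library. Thus 769-P si-NC 3 was the highest library of its line (52 of 72 genes above their mean) and ACHN si-NC 3 the lowest of its line (18 of 72), and both libraries are controls. At the other ends, 769-P si-NUF2 1 was the lowest of its line (22 of 72) and ACHN si-NUF2 1 the highest of its line (53 of 72). Their part in the group medians below was not tested beyond leaving them out.

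**Figure D1:**
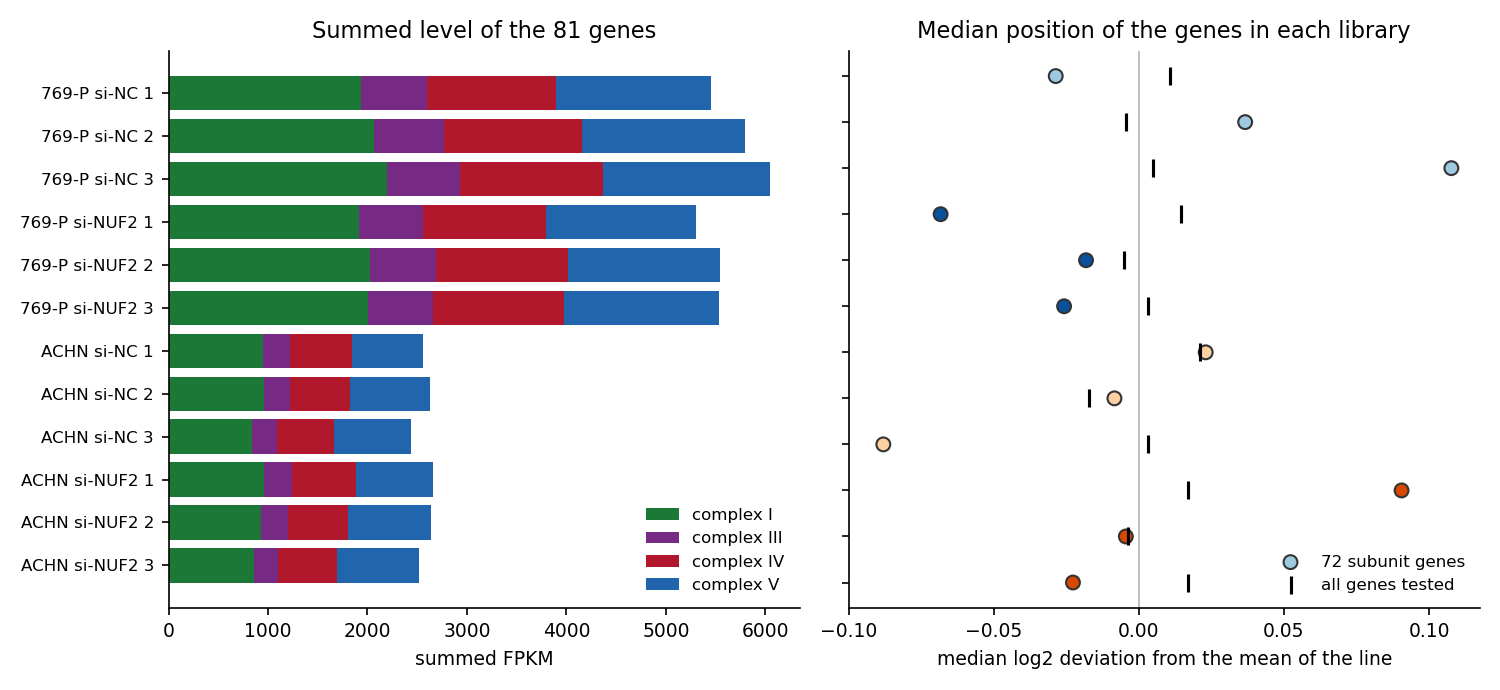
Left, summed FPKM of the 81 genes in each of the 12 libraries, split by complex. Right, for each library, the median log2 deviation of the 72 tested genes from the mean of their line (circles) and the same over all genes tested (bars). The 769-P libraries hold 5303 to 6041 FPKM and the ACHN libraries 2440 to 2657, and the circles lie between -0.088 and 0.108 while the bars stay near 0.

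In 769-P cells, most of the subunit genes moved little after NUF2 knockdown, and single genes stood out in both directions. NDUFA8 rose 1.20-fold and ATP5F1 1.19-fold, whereas NDUFV2, NDUFA12, NDUFB5, NDUFA6 and NDUFB9 fell. Of the 81 genes, 72 passed the filter of at least 0.5 FPKM in 3 of the 6 libraries. By limma at an adjusted p under 0.05, 3 of the 72 rose and 5 fell, where 5.33% and 4.56% of all 14157 genes tested were called higher and lower. An unadjusted p under 0.05 was found for 11 of the 72, beside 3902 of all 14157 genes, which is a larger share. With the replicate number as a block, 7 rose and 10 fell, beside 14% and 13.6% of all genes. The si-NUF2 libraries lay wholly above the si-NC libraries for 9 of the 72 genes and wholly below for 17, beside 16.9% and 16.1% of all genes. These shares are near the background. The median log2 fold change of the 72 genes was -0.079, against -0.0051 over all genes, and 54 of the 72 lay below 0. Without si-NC 3, the library with the highest deviation, the median was -0.047. The change of 46 of the 72 genes (63.9%) was within 1.1-fold, as for 39.7% of all genes, and 2 exceeded 1.5-fold (2.78%, beside 10.2% of all genes). In bulk RNA, a change in the mix of cells and a change of RNA per cell cannot be told apart. Leaving out any of si-NUF2 1, 2, 3, si-NC 2 or si-NC 3 left 1 call, and leaving out si-NC 1 left 4. None of NDUFA8, ATP5F1, NDUFV2, NDUFA12, NDUFB5, NDUFA6 and NDUFB9 kept its call under every alternative setting. Their highest limma adjusted p over the alternatives lay between 0.089 (NDUFA12) and 0.144 (NDUFA6).

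**Figure D2:**
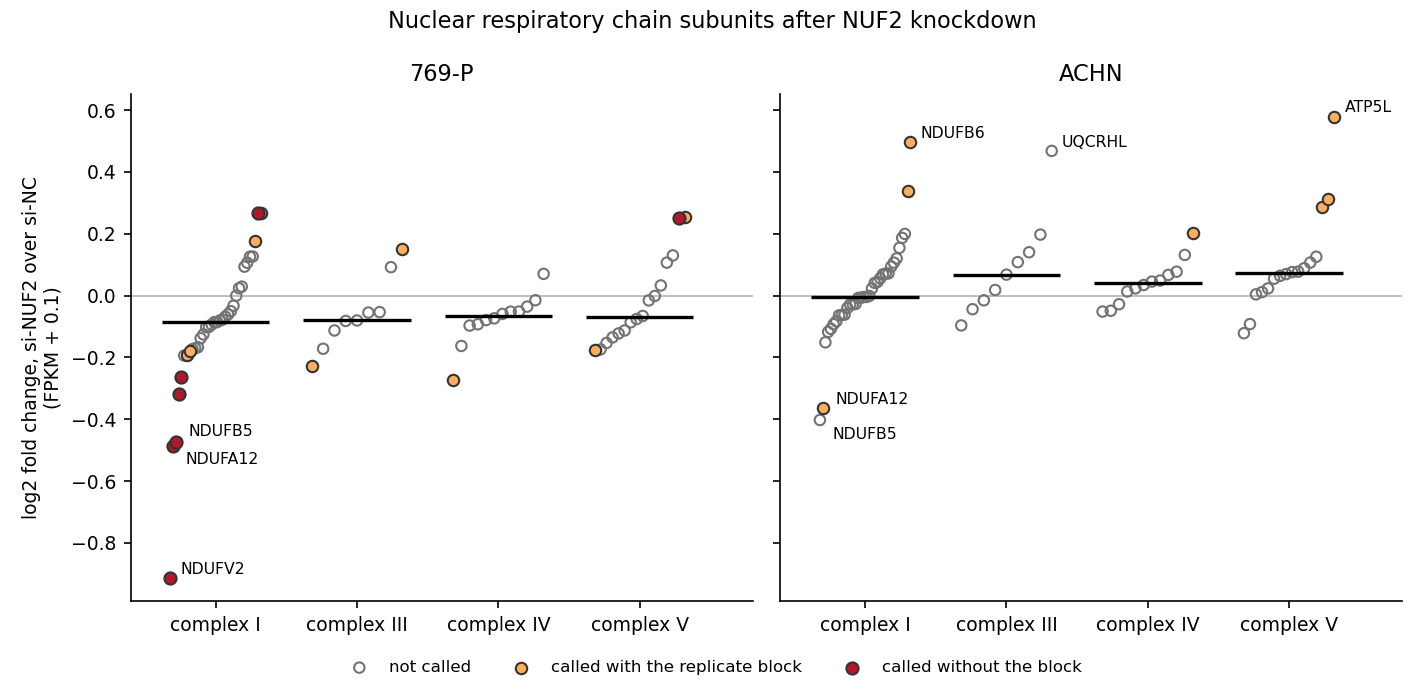
Log2 fold change of the subunit genes shown (si-NUF2 over si-NC, on log2(FPKM + 0.1)) in 769-P (left) and ACHN cells (right), by complex. Each point is 1 gene, bars are the medians of a complex, red marks genes called without the block and orange those called only with it. NDUFV2 is the lowest point in 769-P and NDUFB5 the lowest in ACHN cells, and the bars lie between -0.086 and 0.073.

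Complex I made up 35 of the 72 genes tested in 769-P, and 2 of the 35 rose and 5 fell (4 and 7 with the block). That is 5.71% and 14.3%, beside 5.33% and 4.56% of all genes. With the block it is 11.4% and 20%, beside 14% and 13.6%. Of its core subunits, NDUFS8, which carries iron-sulfur clusters, measured 36.2, 38.2 and 42.0 FPKM after knockdown and 31.9, 31.8 and 33.9 in the controls, without overlap (0.27 ± 0.073, adjusted p = 0.0653, and 0.0173 with the block). NDUFS1 (-0.050), NDUFS3 (-0.094), NDUFS7 (-0.13) and NDUFV1 (-0.033), which carry the flavin and the iron-sulfur clusters of the electron path or its scaffold, had adjusted p between 0.411 and 0.76.

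NDUFV2, another iron-sulfur core subunit, measured 0.811, 1.00 and 0.791 FPKM after knockdown and 1.32, 1.83 and 2.15 in the controls, again without overlap. Its log2 fold change of -0.91 ± 0.20 (SE, limma adjusted p = 0.0347) was the lowest of all, at a level far under that of its partners. Between 16 and 189 reads per library stood behind it over the 12 libraries, and 28.4% of its exon bases are shared with another gene on the same strand.

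Among the accessory subunits of complex I, NDUFA8, an intermembrane-space subunit (chr9:122144058-122159819 minus strand, all gene positions being those of hg38), measured 109.8, 110.3 and 110.3 FPKM after knockdown and 91.4, 89.3 and 97.1 in the controls (0.27 ± 0.057, limma adjusted p = 0.0335). The 3 knockdown libraries were all but equal and lay above every control. NDUFS6, needed late in the assembly of complex I, measured 89.0, 87.1 and 83.7 against 77.0, 76.1 and 79.1 FPKM and was called with the block only (0.18, adjusted p = 0.101, and 0.0367 with the block).

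The accessory subunits that fell did so by less than 1.5-fold. NDUFA12 (chr12:94897055-95003770, minus strand), which sits on the matrix arm of complex I, measured 34.6, 36.3 and 31.1 FPKM after knockdown and 43.8, 46.8 and 54.0 in the controls (-0.49 ± 0.097, limma adjusted p = 0.0278). NDUFB5, a membrane-arm subunit (chr3:179604690-179627647, plus strand), measured 17.5, 17.6 and 14.0 against 20.7, 23.1 and 24.98 FPKM (-0.47 ± 0.12, adjusted p = 0.0472). In both genes every knockdown library lay under every control, and si-NC 3 was the highest of the 6. NDUFA6, a matrix-arm subunit, measured 70.1, 71.1 and 67.4 against 80.97, 85.3 and 97.0 FPKM (-0.32 ± 0.077, adjusted p = 0.0464). NDUFB9 (chr8:124539101-124580648, plus strand) measured 83.7, 82.1 and 81.3 against 99.3, 96.8 and 103.6 FPKM (-0.26 ± 0.056, adjusted p = 0.0336). These genes too had no overlap between the groups. NDUFA2 (-0.18, adjusted p = 0.0302) and NDUFB2 (-0.19, adjusted p = 0.0497) were called lower with the block only. Over the 35 genes of complex I tested the median log2 fold change was -0.086, with 25 below 0.

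Complexes III and IV gave no call in 769-P without the block. The median log2 fold change was -0.081 over the 9 genes of complex III and -0.066 over the 12 of complex IV tested, of which 11 lay below 0. On the log2 scale the genes of complex III lay between -0.23 and 0.15, and those of complex IV between -0.27 and 0.070. UQCRC2, a core protein of complex III, was called higher with the block (0.15, adjusted p = 0.0457), with 52.4, 55.9 and 57.6 against 45.8, 52.2 and 53.2 FPKM, where si-NUF2 1 lay under si-NC 3 in the deposited FPKM and each si-NUF2 library lay above the control of its own number. UQCRQ, a small ubiquinone-binding subunit, was called lower with the block (-0.23, adjusted p = 0.0354), with 84.6, 99.3 and 99.4 against 101.9, 108.0 and 125.5 FPKM. The Rieske iron-sulfur protein UQCRFS1 (-0.053) and UQCRC1 (-0.081) were not called. In complex IV, COX5A, a matrix-facing subunit (chr15:74919791-74938168, minus strand), measured 80.99, 74.8 and 88.7 FPKM after knockdown and 90.9, 90.6 and 118.8 in the controls (-0.27 ± 0.12, adjusted p = 0.193, and 0.0253 with the block). One control library, si-NC 3, stood well over the other two. COX4I1 (-0.036) and COX5B (-0.093) were not called with or without the block.

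In complex V, ATP5F1, the b subunit of the peripheral stalk of ATP synthase (chr1:111448864-111462773, plus strand), measured 83.3, 79.0 and 83.9 FPKM after knockdown and 69.6, 68.9 and 70.5 in the controls (0.25 ± 0.057, limma adjusted p = 0.0383). ATP5L, the g subunit in the membrane part (chr11:118401154-118431496, plus strand), measured 23.4, 25.03 and 26.1 against 20.6, 21.3 and 21.2 FPKM (0.25 ± 0.065, adjusted p = 0.0551, and 0.0196 with the block). Neither gene had overlapping groups. The catalytic β subunit ATP5B, the most abundant of the 81 with a mean of 566.6 FPKM over the 12 libraries, measured 705.6, 704.3 and 730.3 against 747.3, 804.7 and 802.6 FPKM (-0.12 ± 0.053, adjusted p = 0.193, and 0.0536 with the block). The α subunit ATP5A1 (-0.0013), the γ subunit ATP5C1 (-0.087) and ATP5O (-0.17) were not called either. ATP5G1, one of 3 genes for the c subunit of the rotor, was called lower with the block (-0.18, adjusted p = 0.0285), while its relative ATP5G2 had a value of 0.11 (adjusted p = 0.084 with the block). The inhibitor of ATP hydrolysis, ATPIF1, which the name rule does not take, was not called in either line (-0.062 and -0.16). The 16 genes of complex V tested had a median of -0.071 and ran from -0.18 to 0.25.

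In ACHN cells, ATP5L and NDUFB6 were among the genes with the highest fold changes, NDUFB5 and NDUFA12 had the lowest, and no subunit gene passed the test without the block. By limma, 0 of the 72 tested genes were called in either direction, as 0% of the 15113 genes tested were called higher and 0% lower. Among the 72, 7 had an unadjusted p under 0.05, beside 1229 of all 15113 genes. With the replicate number as a block, 7 rose and 1 fell, beside 6.63% and 5.06% of all genes. With all 12 libraries in 1 fit, 4 rose, NDUFB6, ATP5F1 and ATP5L among them. The share of all genes called in that fit is not given here, so these 4 cannot be set against a background. The si-NUF2 libraries lay wholly above the controls for 11 genes and wholly below for 2, beside 8.36% and 6.09% of all genes. The median log2 fold change was 0.043 (all genes -0.0019), with 45 of 72 above 0, and it was -0.0067 without si-NC 3 and -0.0004 without si-NUF2 1. Of the 72, 56 changed by less than 1.1-fold (77.8%, beside 46.8% of all genes).

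ATP5L measured 32.5, 27.0 and 29.7 against 20.6, 17.3 and 22.3 FPKM (0.58 ± 0.13, adjusted p = 0.328, and 0.0161 with the block). NDUFB6, a membrane-arm subunit of complex I (chr9:32552999-32573184, minus strand), measured 22.5, 19.7 and 20.7 against 15.8, 13.9 and 15.1 FPKM (0.50 ± 0.10, adjusted p = 0.262, and 0.0131 with the block). In both genes every knockdown library lay above every control. NDUFA8 measured 32.7, 31.4 and 28.8 against 23.9, 27.0 and 23.0 FPKM (0.34 ± 0.10, adjusted p = 0.448, and 0.0316 with the block). ATP5F1 measured 26.8, 26.0 and 26.5 against 20.3, 21.99 and 21.8 FPKM (0.31 ± 0.082, adjusted p = 0.394, and 0.0281 with the block). COX6C (0.20, adjusted p = 0.0499 with the block) and ATP5J2, the f subunit of ATP synthase (0.29, adjusted p = 0.0444 with the block), also rose with the block.

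NDUFA12 was the gene that fell with the block in ACHN cells, with 43.1, 53.0 and 51.5 FPKM after knockdown and 56.2, 66.0 and 68.8 in the controls (-0.36 ± 0.13, limma adjusted p = 0.518, and 0.0177 with the block). In both groups library 1 was the lowest and the ranges did not meet. NDUFB5 measured 6.11, 7.22 and 5.598 against 8.49, 8.18 and 8.45 FPKM (-0.40 ± 0.12, adjusted p = 0.443, and 0.0505 with the block), also without overlap. By complex, the medians were -0.0044 for complex I, 0.068 for III, 0.040 for IV and 0.073 for V, and all but 1 of the genes of complexes III and IV lay between -0.097 and 0.20. The largest fold among uncalled genes belonged to UQCRHL, a near copy of the hinge protein gene UQCRH, at 2.25, 4.03 and 8.92 against 2.21, 2.59 and 5.31 FPKM (0.47 ± 0.55). Its spread between libraries of a group exceeded the difference between the groups, and reads of the 2 copies may have been split between them.

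With the block, 5 genes were called in the same direction in both lines, among them NDUFA8, ATP5F1 and ATP5L, which rose, and NDUFA12, which fell. No such count is given here for all 12930 genes tested in both lines. Whether 5 is more than the background therefore cannot be said. In ACHN cells without the block none of the 5 passed the test. Over 70 subunit genes tested in both lines, the log2 fold changes in 769-P and ACHN cells correlated with r = 0.708 (Pearson) and rho = 0.550 (Spearman), and 40 of the 70 had the same sign. Over the 12930 genes tested in both lines, r was 0.473, rho was 0.540 and 9131 had the same sign. The subunit genes thus had the same sign less often than all genes, with a near equal rho and a higher r. The lines share no library, but they share the siRNAs, and the genes share base composition and depth within a library, so these correlations across genes are a description.

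**Figure D3:**
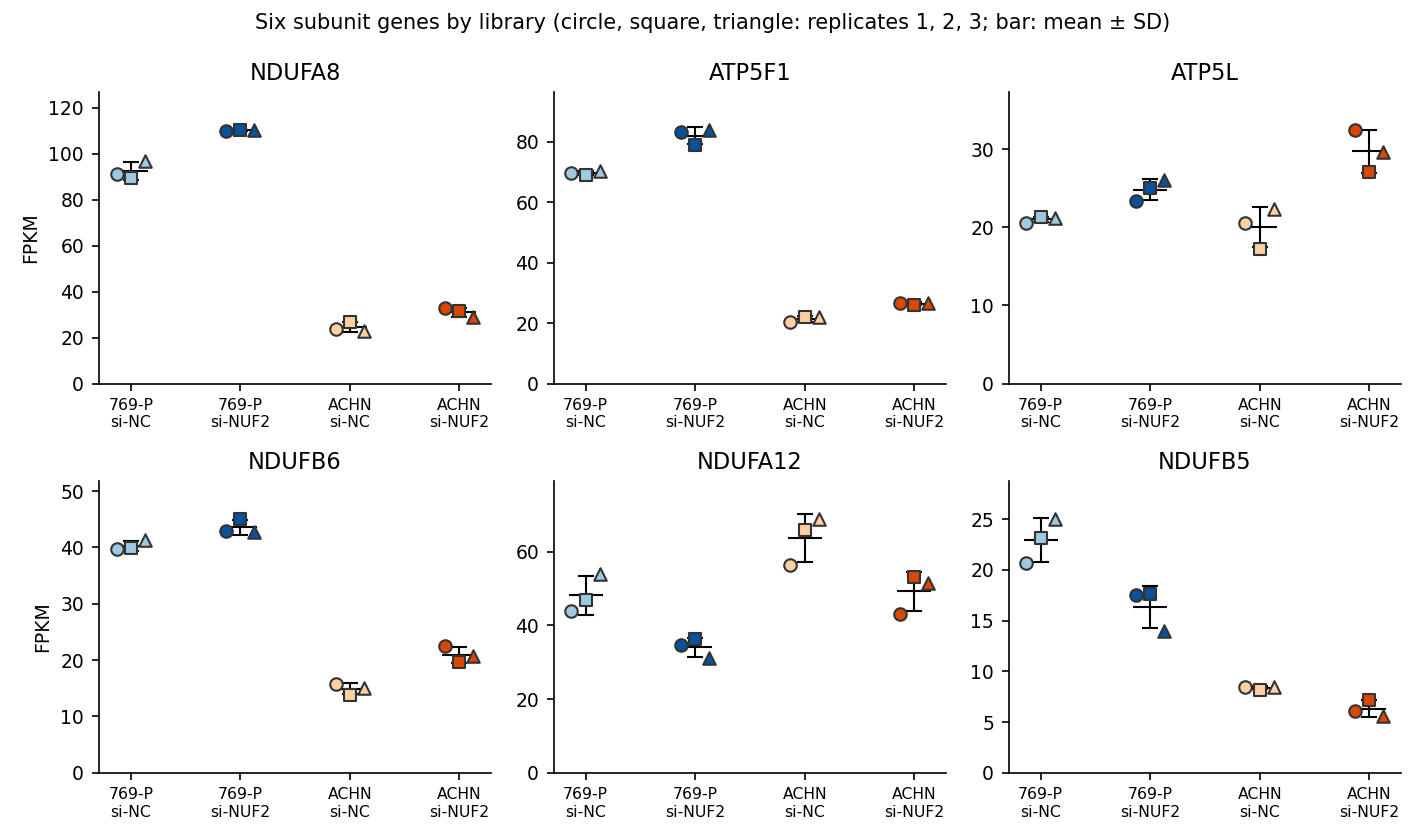
FPKM of NDUFA8, ATP5F1, ATP5L, NDUFB6, NDUFA12 and NDUFB5 in all 12 libraries, with the mean and SD of the 3 libraries of each group. In each panel the si-NUF2 and si-NC libraries of a line do not overlap, and NDUFA12 and NDUFB5 are the 2 that are lower after knockdown.

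**Figure D4:**
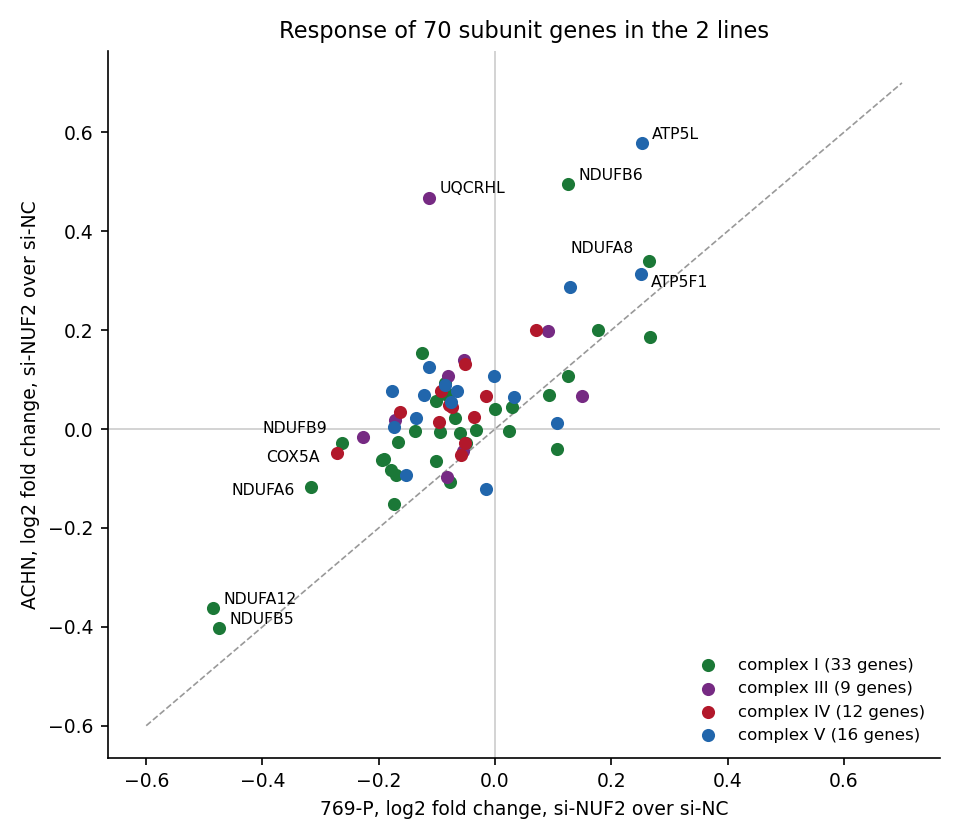
Log2 fold change (si-NUF2 over si-NC) of 70 subunit genes in 769-P (horizontal) against ACHN cells (vertical), coloured by complex, with a dashed line of equal response. NDUFA8 and ATP5F1 lie to the upper right with ATP5L above them, NDUFA12 and NDUFB5 to the lower left, and most genes lie within 0.2 of the origin.

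Whether the 2 lines responded differently was tested by an interaction term, siRNA by line, fitted over all 12 libraries. By limma, 0 of the 73 subunit genes in that fit were called, as were 0% of the 16331 genes tested. An unadjusted p under 0.05 was found for 5 of the 73, beside 774 of all 16331 genes. With the block 1 of the 73 was called, beside 1.49% of all genes. The gene was NDUFB6, with a difference of -0.38 on the log2 scale, 769-P minus ACHN (95% interval of -0.60 to -0.15, adjusted p = 0.906; with the block -0.50 to -0.25, adjusted p = 0.0352). In 769-P the 6 libraries ran from 39.7 to 45.0 FPKM, and the pairs of the same number differed by 0.12, 0.19 and 0.068, while the ACHN pairs differed by 0.51, 0.51 and 0.47. For NDUFB9 the difference was -0.24 (adjusted p = 0.067 with the block), for UQCRFS1 -0.20 (0.0879) and for ATP5L -0.33 (0.0908). Over all 73 genes the median difference was -0.13 and 62 lay below 0, against a median of -0.0061 over all genes. The deviations of 769-P si-NC 3 (0.108) and ACHN si-NC 3 (-0.088) given above lie in the directions that lower this median. So do those of ACHN si-NUF2 1 (0.091) and 769-P si-NUF2 1 (-0.068). Smaller deviations of the other libraries lie in both directions. The part of any of these libraries in the median was not tested.

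Promoters are shown for 4 genes called the same way in both lines with the block. They are also shown for genes whose start region holds more than 1 of the words searched. Shared promoter words are what this gene set is known for. RefSeq sequence around the start site (GRCh38.p14, 250 bases before to 50 after) was matched for 63 of the 81 genes, 59 of them tested, and was searched on both strands for 4 words. GCATGCGC, the core of the NRF1 site, occurred in 11 of the 59 (18.6%, beside 3.27% of all 27305 promoters of that length). CCGGAAG, the core bound by GABP and other ETS factors, occurred in 17 (28.8%, beside 10.7%), and AAGATGGC, the YY1 core, in 10 (16.9%, beside 3.03%). TATAAA, the TATA box, occurred in 6 (10.2%, beside 11.95%). A match is a description of letters and not a bound site. The stretches below run from 100 bases before to 30 after the start, on the strand of the gene, with matches in capitals on either strand.
ATP5F1, chr1:111449364-111449493, plus strand: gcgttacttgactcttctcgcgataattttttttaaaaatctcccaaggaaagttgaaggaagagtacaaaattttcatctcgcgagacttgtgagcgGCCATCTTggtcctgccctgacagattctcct
NDUFA8, chr9:122159750-122159879, minus strand: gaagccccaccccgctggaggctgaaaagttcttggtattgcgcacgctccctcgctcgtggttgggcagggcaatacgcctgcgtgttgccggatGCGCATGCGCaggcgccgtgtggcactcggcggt
ATP5L, chr11:118401506-118401635, plus strand: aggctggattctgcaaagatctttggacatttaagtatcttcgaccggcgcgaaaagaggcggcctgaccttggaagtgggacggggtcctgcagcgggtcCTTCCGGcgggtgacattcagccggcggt
NDUFA12, chr12:95003668-95003797, minus strand: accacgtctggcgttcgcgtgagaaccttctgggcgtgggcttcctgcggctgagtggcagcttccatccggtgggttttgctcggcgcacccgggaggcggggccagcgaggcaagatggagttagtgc
ATP5I, chr4:674247-674376, minus strand: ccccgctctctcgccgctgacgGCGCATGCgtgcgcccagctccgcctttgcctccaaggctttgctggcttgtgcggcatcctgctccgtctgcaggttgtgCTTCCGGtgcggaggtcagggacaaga
NDUFS7, chr19:1383807-1383936, plus strand: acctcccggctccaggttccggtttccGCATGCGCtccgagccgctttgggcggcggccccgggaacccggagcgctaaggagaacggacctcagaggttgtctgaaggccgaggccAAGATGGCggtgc
ATP5J, chr21:25735025-25735154, minus strand: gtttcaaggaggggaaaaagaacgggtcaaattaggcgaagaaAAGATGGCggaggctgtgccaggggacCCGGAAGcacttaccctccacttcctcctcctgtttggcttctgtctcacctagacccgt
The 4 shown that were called in both lines were called there with the replicate block only. Of these 4, ATP5F1 holds the YY1 word near its start, NDUFA8 the NRF1 word and ATP5L the ETS word. NDUFA12 holds none of the 3 within these 130 bases. ATP5I, the e subunit of ATP synthase (-0.14 in 769-P and 0.023 in ACHN, as log2 fold changes), NDUFS7 (-0.13 and 0.15) and ATP5J, coupling factor 6 (0.033 and 0.064), which hold more than 1 word, were not called in either line.

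A few other genes of the pathway moved after knockdown. Of the 4 subunits of complex II, which links the citric acid cycle to the chain, SDHB rose in 769-P, with 29.6, 28.9 and 27.6 against 24.4, 22.6 and 21.7 FPKM (0.34, limma adjusted p = 0.0351). In ACHN cells SDHB measured 24.0, 22.0 and 21.0 against 18.3, 18.2 and 17.4 FPKM (0.32, adjusted p = 0.432, and 0.0241 with the block). The groups did not overlap in either line. The 13 subunits encoded by mitochondrial DNA, which held 17.4 to 20.8% of all FPKM, had medians of 0.083 (769-P) and 0.049 (ACHN) on the log2 scale. None was called without the block (0 of 13 also at an unadjusted p under 0.05), and with it MT-ND2, MT-ND4, MT-CYB and MT-CO3 rose in 769-P and 0 in ACHN cells. That is 30.8% and 0% of the 13, beside 14% and 6.63% of all genes called higher with the block in 769-P and ACHN cells.

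Of 48 assembly factors, 1 rose and 3 fell in 769-P (6 and 8 with the block, and 17 at an unadjusted p under 0.05), which is 2.08% and 6.25% of the list (12.5% and 16.7% with the block) beside 5.33% and 4.56% of all genes (14% and 13.6%). In ACHN cells 0 were called (6 at an unadjusted p under 0.05, 2 up and 2 down with the block). With the block, 6.63% and 5.06% of all genes were called higher and lower there. Over all genes, 3902 of 14157 in 769-P and 1229 of 15113 in ACHN cells had an unadjusted limma p under 0.05. NUBPL, which delivers iron-sulfur clusters to complex I, measured 1.94, 1.83 and 1.91 against 1.25, 1.43 and 1.20 FPKM in 769-P (0.54, limma adjusted p = 0.0351). TMEM70, needed for complexes I and V, measured 19.8, 20.1 and 20.4 against 27.0, 26.5 and 27.8 FPKM (-0.42, adjusted p = 0.0116). COX18 (-0.49) and COX19 (-0.34), which serve complex IV, had adjusted p of 0.0306 and 0.0277. Each of the 4 had groups apart in 769-P. Of 15 regulators, PPARGC1A, a coactivator of mitochondrial gene expression, fell in 769-P, with 5.78, 6.32 and 6.57 against 7.97, 9.13 and 9.46 FPKM (adjusted p = 0.0229), and 0 were called in ACHN cells, with 1 at an unadjusted p under 0.05. PPARGC1A was not tested there, at 0.128 to 0.324 FPKM. NRF1 (-0.090 in 769-P, 0.054 in ACHN) and GABPA, the DNA-binding subunit of GABP (-0.061 and -0.038), were not called, and TFAM, which packages mitochondrial DNA, was called lower in 769-P with the block only (-0.20, adjusted p = 0.0342). Cytochrome c (CYCS), the carrier between complexes III and IV, measured 96.0, 84.6 and 80.5 against 77.5, 75.3 and 75.0 FPKM in 769-P and 56.2, 48.4 and 56.1 against 41.9, 37.1 and 40.0 in ACHN cells, and was called higher with the block only (0.21, adjusted p = 0.0367, and 0.44, adjusted p = 0.0145). For scale, 2 of 79 cytosolic ribosomal protein genes and 2 of 37 proteasome genes rose in 769-P without the block and none of either list fell. With the block the counts were 10 higher and 1 lower, and 8 higher and 0 lower. In ACHN cells 0 of either were called without the block, with 1 of each at an unadjusted p under 0.05, and with it 2 ribosomal protein genes were higher and 0 lower, and 3 proteasome genes higher and 1 lower.

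Most of these genes differed between the lines themselves. Under si-NC, limma called 60 of 73 subunit genes higher in 769-P and 5 lower, beside 32.5% and 32.1% of all 16331 genes tested. The count of both directions together stayed between 61 and 66 in all alternatives. The median difference was 1.18 on the log2 scale, a 2.27-fold higher level, against -0.0025 over all genes. Of the 73, 43 (58.9%) were over 2-fold higher in 769-P, as were 15.6% of all genes tested. The si-NC libraries of 769-P lay wholly above those of ACHN cells for 61 of the 73 and wholly below for 6. Over all 16331 genes tested, these counts were 5620 and 5511. Each complex took part, with 29 of 36 genes higher in complex I (median 1.20), 8 of 9 in III (1.18), 11 of 12 in IV (1.30) and 12 of 16 in V (1.02). All libraries of a line could share a culture or a library batch, which cannot be told apart from the line.

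The largest differences were those of COX7B, a small subunit of complex IV, NDUFV2 and NDUFB9. COX7B measured 44.9, 52.3 and 55.8 FPKM in the 769-P controls and 10.5, 9.04 and 8.22 in the ACHN controls, a 5.54-fold difference (2.47 ± 0.13 on the log2 scale, limma adjusted p = 6.56e-08). NDUFB9, at 99.3, 96.8 and 103.6 against 20.8, 22.1 and 20.3 FPKM, differed 4.80-fold (2.26 ± 0.064, adjusted p = 5.07e-10). Both genes had libraries that lay close together in each line and far apart between the lines. NDUFV2 differed 4.89-fold, at the low levels given above. It was under 0.5 FPKM in every ACHN library and entered the fit through 769-P alone, where it is higher. Its place among the largest differences is therefore a description only. COX6C (2.23) and UQCRB (2.14), the latter a subunit of complex III, followed.

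The 5 genes lower in 769-P were NDUFA12 (-0.38), NDUFA13 (-0.67), NDUFA7 (-0.59), COX7A2L (-0.31) and ATP5G2 (-0.25). COX7A2L, known for joining complexes III and IV into supercomplexes, measured 18.5, 16.8 and 19.6 FPKM in the 769-P controls and 23.6, 21.3 and 24.6 in the ACHN controls (adjusted p = 0.00685). NDUFA12 measured 43.8, 46.8 and 54.0 against 56.2, 66.0 and 68.8 FPKM (adjusted p = 0.0141). In both genes the lines did not overlap. NDUFA13 and NDUFA7 were under 1.8 FPKM in every library. NDUFA7 was under 0.5 FPKM in every 769-P library and entered the fit through ACHN cells alone, where it is higher. Its call is therefore a description only. The genes not called were NDUFA10, NDUFA11, NDUFA5, NDUFB8, UQCRHL, ATP5L, ATP5O and ATP5S. The order of the genes was much the same in the 2 lines, and over the 73 genes their mean log2 levels correlated with r = 0.937 (Pearson) and rho = 0.890 (Spearman).

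**Figure D5:**
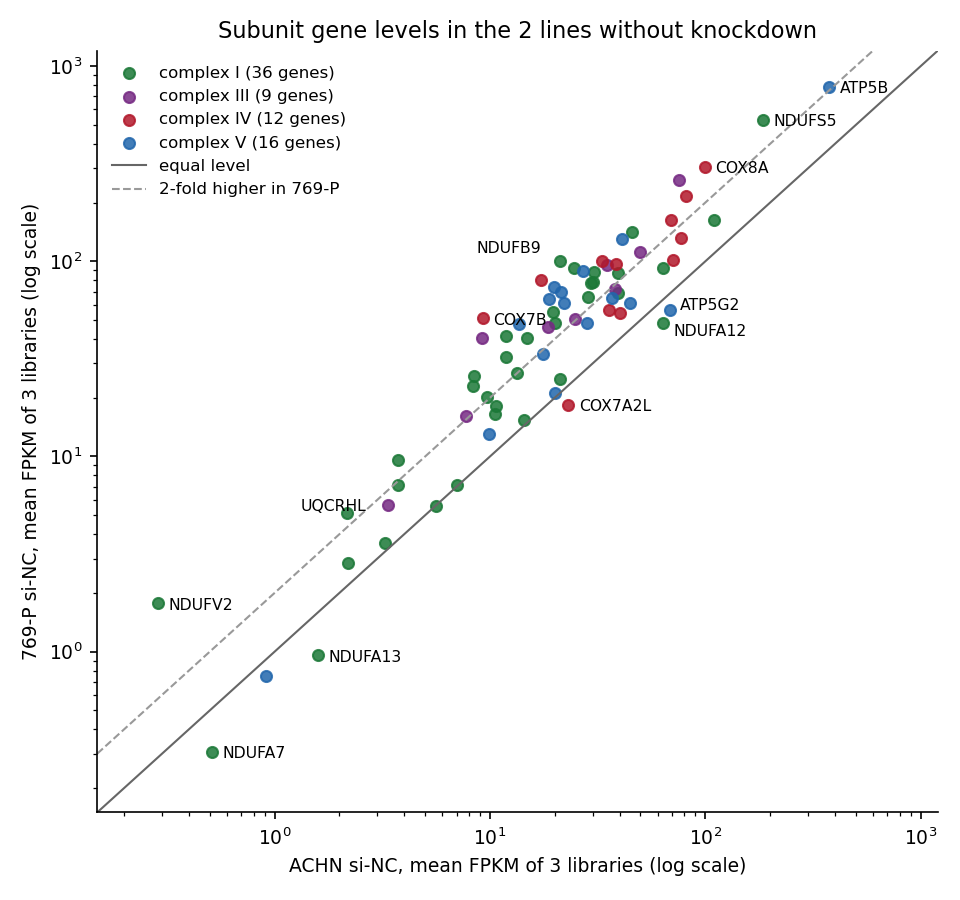
Mean FPKM of 73 subunit genes in the 3 si-NC libraries of ACHN (horizontal) and 769-P cells (vertical), both on log axes, coloured by complex, with a solid line of equal level and a dashed line of a 2-fold higher level in 769-P. Most genes lie above the solid line, 43 of them above the dashed line in the fit, and NDUFA12, NDUFA13, NDUFA7, COX7A2L and ATP5G2 lie under the solid line.

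Other lists of the pathway leaned the same way by less. By limma, 3 of 4 complex II genes were higher in 769-P and 0 lower (median 0.54), 30 of 48 assembly factors were higher and 5 lower (0.47), and 8 of 15 regulators were higher and 0 lower (0.47). The 13 mitochondrially encoded subunits had 3 higher and 3 lower (0.16). Ribosomal protein genes had 26 of 79 in each direction (0.0045) and proteasome genes 18 higher and 3 lower of 37 (0.14). PPARGC1A measured a mean of 8.85 FPKM in the 769-P controls and 0.234 in the ACHN controls (4.80 on the log2 scale). It was under the filter in ACHN cells and entered the fit through 769-P alone, so this difference is a description only. Cytochrome c1 (CYC1), the haem subunit of complex III that the name rule does not take, measured a mean of 342.6 against 71.9 FPKM (2.27). The acyl carrier protein NDUFAB1, which belongs to complex I, measured 74.7 against 25.3 FPKM (1.59). NDUFA4L2, a hypoxia-linked relative of NDUFA4, went the other way, with 0.0272 against 3.29 FPKM (-4.71). It was under the filter in 769-P and entered the fit through ACHN cells alone, so this too is a description only.

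The highest levels over the 12 libraries were those of ATP5B (mean of 566.6 FPKM), NDUFS5 (344.7) and COX8A (201.1). Genes that were not tested in either line are those known as isoforms of other tissues or as odd gene models. The muscle and heart forms COX6A2 (0 to 0.173 FPKM) and COX7A1 (0.127 to 0.542), and the testis forms COX6B2 (0 to 0.0476), COX7B2 (0 in every library) and COX8C (0 to 0.176), lay far under their widely expressed relatives, where COX6A1, COX6B1 and COX7A2 measured 28.6 to 165.6 FPKM. The readthrough ATP5J2-PTCD1 (0 to 0.0808), ATP5L2 (0 to 0.203) and ATP5J2LP (0 to 0.289), annotated as a processed pseudogene but kept by the name rule, make up the rest. NDUFA7 was not tested in 769-P (0.172 to 0.375 FPKM) nor NDUFV2 in ACHN cells (0.188 to 0.377 FPKM). Of the exon bases of the low genes NDUFV2, NDUFA13, NDUFA7, NDUFA11, NDUFA9 and NDUFB8, 9.65 to 33.8% are shared with another gene on the same strand. The share is 34.5% for COX8A, among the highest genes, and 13.0% for COX6A1 and 18.5% for NDUFC1. On the same strand it is 0% for the low genes ATP5S, NDUFS7, UQCRHL and NDUFV3. With genes of either strand taken in, it is 20.1% for ATP5S and 49.1% for NDUFS7, and still 0% for UQCRHL and NDUFV3. How the authors counted such bases is not given in the sources used here. Summed pseudogene copies reached 18.3 FPKM for COX6A1, 9.38 for UQCRFS1 and 5.14 for COX5B, and reads could have been split between these genes and their copies.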

How the data were processed

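RNA of 12 libraries was measured. The authors filtered the reads with fastp and deposited FPKM, with 1 value per gene and library for 58302 genes. Per the submitters' processing notes, HISAT2 2.0.5, featureCounts 1.5.0-p3 and hg38 were used, and the annotation release and strand setting are not given in the sources used here. FPKM were scaled by a trimmed mean of log ratios (30% of the log ratios and 5% of the levels trimmed), and log2(FPKM + 0.1) was fitted in limma 3.58.1 (R 4.3.3) with eBayes and a trend, for genes that reached 0.5 FPKM in 3 or more of the 6 libraries of a line. Fold changes on this scale understate those of low genes. Each line was fitted alone. The interaction and the comparison of the lines came from 1 fit of all 12 libraries, over genes that passed in at least 1 line. P-values were adjusted over all genes tested (Benjamini-Hochberg, two-sided) and called under 0.05. With 3 libraries a group, the smallest p of an exact permutation test is 0.1. The fit was also run on simulated data, but without effects of the replicate number and with changes larger than those of most members. That run therefore cannot show how the fit does with such effects or with small changes.

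The members and gene lists were chosen with earlier results of these data known. The counts cover all members, and some members are not reported by name or not plotted here. Named genes were the ends of the fold changes, the lowest p-values, genes called in both lines with the block and subunits set by role. Depth was recovered from the whole multiples in low FPKM (95.2% of values within 0.02 reads of a whole number). The replicate numbers come from the labels, which do not say what they stand for. Libraries of the same number deviated together (769-P, r of 0.360, 0.271 and 0.190, and ACHN, 0.648, 0.735 and 0.461), and no library correlated better with another number, so the fit with the number as a block is given beside the other. Gene positions, exon overlaps and the match of names are from GENCODE, promoters from RefSeq. Alternatives were other pseudocounts, scalings, no filter, the block, 1 fit of all libraries, a stricter threshold and leaving out each library. Scripts ran in Python 3.11.15 with pandas 2.3.3, NumPy 2.4.6, matplotlib 3.10.9 and SciPy 1.17.1.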

Additional observations from a re-analysis of the deposited data

Results flagged for a closer look

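The response of NDUFB6 to NUF2 knockdown differed between the lines in the test of the difference itself with the replicate block, by -0.38 on the log2 scale (limma adjusted p = 0.0352), with a higher level in all 3 pairs of both lines. Without the block the same difference had an adjusted p of 0.906. The part of the libraries that stood apart was not tested. No group had enough libraries for a check of single outlying libraries.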

How the results depend on the processing

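In 769-P, 8 subunit genes were called, and 8 again with either other pseudocount or scaling. The count was 17 with the replicate block, 5 in 1 fit of all 12 libraries, 1 without the filter on low values, 1 at an adjusted p under 0.01 and 1 to 4 when single libraries were left out (1 without any of si-NUF2 1, 2, 3, si-NC 2 and si-NC 3). In ACHN cells 0 were called, 8 with the block and 4 in the fit of all 12, and 0 in the other alternatives. For the difference of the responses the count was 0, and 1 with the block. Between the lines, the 65 calls became 61 to 66. With single libraries left out, the median of the members stayed between -0.11 and -0.047 in 769-P, and between -0.0067 (without si-NC 3) and 0.057 in ACHN cells. Over 44 named members and 1040 values under alternatives, 0 were reversed, 49 lost their call (in 769-P), and 6 gained one in 769-P, as 11 did in ACHN. The cause of these changes was not tested. With 3 libraries a group, the spread between libraries limits the calls, and genes near 0.5 FPKM rest on few reads.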
